A study of Mus musculus with 20 samples.

Results

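A set of 10 genes of haem and iron recycling was followed through mouse type 1 conventional dendritic cells (cDC1s), which bear XCR1 and specialise in showing foreign antigen to CD8 T cells. The members are Spic, Hmox1, Blvra, Blvrb, Slc40a1, Fth1, Ftl1, Cd163, Slc11a1 and Tfrc. They were chosen by symbol, with earlier results of these data known, from 56221 genes listed in any of 3 deposited count tables. All 10 were present in each table. The tables hold 20 RNA-seq libraries in 8 groups. The first compares WT C57BL/6 mice on day 15 of TLI/ATS, a regimen of lymphoid irradiation plus serum against thymocytes, with untreated mice of that genotype, both as sorted XCR1+CD8a+ cells, 2 libraries each. The second has EpoR+ and EpoR- cells of the same XCR1+CD8a+ gate from EpoR-tdTomato reporter mice, in which tdTomato reports the erythropoietin receptor. Both fractions came from mice given TLI/ATS, day 15, 2 libraries each. The third has cDC1s of mice whose floxed Epor is deleted by Xcr1-Cre (cKO) and of Epor flox/flox controls, 3 libraries in each of 4 groups. They came from peripheral lymph node and spleen; the labels give CCR7+ XCR1+SIPRa- (as spelt there) for both and call the lymph node cells migratory. For the first and second table no tissue is stated in the sources read here. Control mice are described by the floxed allele alone, so an effect of Cre cannot be told apart from one of Epor loss. The mice's ages, and whether libraries came from separate animals, are not stated there either, and p-values therefore measure the spread between libraries.

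In the red pulp of the spleen, macrophages take up aged red cells, free the iron from their haem and return it to the blood. Haem oxygenase 1 (Hmox1) opens the haem ring, biliverdin reductases turn the product into bilirubin, ferritin stores the iron and ferroportin (Slc40a1) exports it. Haem also relieves repression by BACH1, through which it induces Hmox1 and Spic, the transcription factor on which red pulp macrophages depend. Iron acts on several of these mRNAs after transcription. When iron is scarce, iron regulatory proteins bind hairpins called iron-responsive elements, which blocks translation of ferritin from the 5′ UTR and protects the transferrin receptor mRNA from decay through the 3′ UTR.

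Levels are CPM, read counts divided by the library total after TMM, a scaling that matches libraries over most genes. Comparisons between genes use CPM per kb of the first coding transcript in GENCODE vM21. Library totals ran from 26618029 to 77570149 counts. A difference was called when the Benjamini-Hochberg adjusted p of edgeR's quasi-likelihood test over all genes was under 0.05, and all 10 members passed the filter on low counts in each table. Of the sort check, Epor had 525 and 657 counts in EpoR+ and 4 and 11 in EpoR- libraries. After TLI/ATS it had 236 and 127 counts, and 0 in both untreated libraries. It was called higher there (edgeR quasi-likelihood, Benjamini-Hochberg adjusted p = 0.0223). Lymph node cKO libraries had 0, 0 and 0 Epor counts and their controls 24, 28 and 4, while spleen cKO libraries had 0, 2 and 0 and their controls 1, 0 and 6. Loss of Epor was thus not measurable in spleen at this depth, and Epor was too low in either tissue to be tested. The 15 cDC1 markers summed to between 3001 and 19507 CPM in every library, with no marker at 0 throughout a group. One spleen control, replicate 3, stood apart from the other controls, with a chi-square per degree of freedom of 142 and 164 against them and 31.8 between them. Against the spleen cKO libraries it stood at 30.3 to 56.4, nearer to them than to its own group. In lymph node, control replicate 2 stood at 83.9 and 92.5 against its own group but at 42.0 and 36.6 against cKO replicates 1 and 3, and cKO replicate 2 stood at 76.8 and 88.2 against its own group but at 38.6 against control replicate 3. In the TLI/ATS pair this value was 294, against 15.8 in the untreated pair.

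The hairpins themselves are shown because they are the part of these mRNAs that iron is known to act on. A search for a C, then 5 bases, the loop CAGTGN and 5 more bases, with the 5 bases before and after the loop able to pair (G with U allowed), on the sense strand of the same GENCODE transcripts (GRCm38) found it in 4 members. Tfrc carries 4 copies in its 3′ UTR, and Fth1, Ftl1 and Slc40a1 carry 1 each in the 5′ UTR. Capitals mark the loop bases in the 27-base elements of Tfrc (chromosome 16), Fth1 (chromosome 19) and Ftl1 (chromosome 7), written 5′ to 3′ as DNA.
Tfrc element 1, base 3316 to 3342: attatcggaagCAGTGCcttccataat
Tfrc element 2, base 3695 to 3721: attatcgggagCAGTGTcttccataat
Tfrc element 3, base 3760 to 3786: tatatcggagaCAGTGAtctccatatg
Tfrc element 4, base 3807 to 3833: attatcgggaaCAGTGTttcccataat
Fth1 element, base 88 to 114: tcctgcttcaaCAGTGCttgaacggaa
Ftl1 element, base 79 to 105: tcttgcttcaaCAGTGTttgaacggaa
Bases are counted from the start of each transcript. Across all genes the pattern was found in 21 of 18858 5′ UTRs (0.111%) and in 97 of 19441 3′ UTRs (0.499%). It was not found in Spic, Hmox1, Blvra, Blvrb, Slc11a1 or Cd163. A pattern match is a description of the letters and RNA levels say nothing of whether an element was bound.

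EpoR+ and EpoR- cDC1s differed in every member. All 10 were higher in EpoR+ cells, where 16.7% of the 15627 genes tested were called, 11.9% higher and 4.75% lower. The member median was a log2 fold change of 3.34, against 0.02 over all genes. The 4 members with the largest changes were the regulator Spic, the scavenger receptor Cd163, the haem-opening enzyme Hmox1 and the exporter Slc40a1. Ferritin, the transferrin receptor and Slc11a1 changed least. In bulk libraries, more cells of a type and more RNA per cell cannot be told apart.

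Spic (ENSMUSG00000004359; GRCm38 chromosome 10, 88674772 to 88685015, minus strand) encodes the ETS factor that red pulp macrophages require. It had 403 and 570.4 CPM in EpoR+ cells and 5.44 and 6.42 CPM in EpoR- cells. The fractions were far apart and the EpoR+ pair differed from each other more than the EpoR- pair did. The log2 fold change was 6.36 ± 0.24 (SE, n = 2 each), an 82.1-fold difference with an edgeR quasi-likelihood, Benjamini-Hochberg adjusted p of 0.000114. Cd163 (ENSMUSG00000008845; chromosome 6, 124304656 to 124330527, plus strand), the macrophage receptor that takes up haemoglobin bound to haptoglobin, had 653 and 531 CPM in EpoR+ and 8.51 and 5.41 CPM in EpoR- cells. Here too no library of one fraction reached the other, and the log2 fold change was 6.41 ± 0.30.

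Hmox1 (ENSMUSG00000005413; chromosome 8, 75093621 to 75100589, plus strand) releases iron, carbon monoxide and biliverdin from haem. It had 3267 and 3412 CPM in EpoR+ and 87.4 and 90.7 CPM in EpoR- cells, with little spread within either fraction. The log2 fold change was 5.23 ± 0.11 (37.5-fold; edgeR quasi-likelihood, Benjamini-Hochberg adjusted p = 2.62e-05). Both biliverdin reductase genes rose with it, by unequal amounts. Blvrb (ENSMUSG00000040466; chromosome 7, 27447978 to 27466144, plus strand), whose product also acts as a flavin reductase in red cells, had 188 and 211 CPM in EpoR+ and 10.4 and 9.93 CPM in EpoR- cells (log2 fold change 4.29 ± 0.13). Blvra (ENSMUSG00000001999; chromosome 2, 127070665 to 127097084, plus strand), the main reductase of haem-derived biliverdin in the adult, had 124 and 114 CPM in EpoR+ and 25 and 20.7 CPM in EpoR- cells (2.38 ± 0.14). Per kb, Blvrb stood above Blvra in EpoR+ cells, at 194 ± 16 against 103 ± 6.5 CPM per kb (SD, n = 2). In EpoR- cells the order was the other way round, with Blvrb at 9.89 ± 0.322 and Blvra at 19.7 ± 2.6 CPM per kb.

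Slc40a1 (ENSMUSG00000025993; chromosome 1, 45908068 to 45926523, minus strand), ferroportin, is the one known iron exporter of animal cells. It had 3405 and 2927 CPM in EpoR+ and 34.7 and 30.1 CPM in EpoR- cells, the widest gap among the members (log2 fold change 6.61 ± 0.16, 97.7-fold; edgeR quasi-likelihood, Benjamini-Hochberg adjusted p = 2.96e-05). The storage genes were already abundant in EpoR- cells and rose far less. Fth1 (ENSMUSG00000024661; chromosome 19, 9980598 to 9985098, plus strand), the ferritin heavy chain that oxidises iron as it enters the shell, had 2298 and 2407 CPM in EpoR+ and 769 and 709 CPM in EpoR- cells (1.67 ± 0.10). Ftl1 (ENSMUSG00000050708; chromosome 7, 45457944 to 45459884, minus strand), the light chain that helps the iron core to form, had 1442 and 1444 CPM in EpoR+ and 514 and 488 CPM in EpoR- cells (1.53 ± 0.09). The 2 chains therefore kept nearly the same proportion. Ftl1 over Fth1, as counts per base within a library, was 0.602 and 0.576 in EpoR+ and 0.641 and 0.66 in EpoR- cells, and an exact two-sided permutation test of 2 against 2 libraries cannot go below the p of 0.333 found here.

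Slc11a1 (ENSMUSG00000026177; chromosome 1, 74375195 to 74386062, plus strand), the NRAMP1 transporter that moves iron out of phagosomes, had 597 and 690.0 CPM in EpoR+ and 187 and 221 CPM in EpoR- cells (log2 fold change 1.66 ± 0.14). Tfrc (ENSMUSG00000022797; chromosome 16, 32608920 to 32632794, plus strand), the receptor by which cells take in transferrin iron, rose least of the 10. It had 149 and 170.3 CPM in EpoR+ and 66.7 and 52.8 CPM in EpoR- cells, without overlap (1.42 ± 0.16; edgeR quasi-likelihood, Benjamini-Hochberg adjusted p = 0.00356). Ranked per kb of that transcript, Fth1 came first in both fractions. Ftl1 came first in every group of the other tables. Those were counted separately, so this is not read as a difference between cells. The ranks depend on the length taken. The transcript and all exons of the gene hold 929 and 3469 bases for Fth1, 968 and 1340 for Ftl1 and 1569 and 1751 for Hmox1. Ranks by all exons were not computed. In EpoR+ cells Fth1 was followed by Hmox1, Ftl1 and Slc40a1 at 2532 ± 83.1, 2128 ± 65.6, 1491 ± 1.25 and 939 ± 100.3 CPM per kb (SD, n = 2). In EpoR- cells Hmox1 stood at 56.8 ± 1.47, below Slc11a1 at 88 ± 10.3, and Slc40a1 at 9.61 ± 0.95 CPM per kb, and the neighbours Blvrb and Slc40a1 did not differ beyond their SDs there. Slc11a1 and Spic, neighbours in EpoR+ cells, did not differ beyond theirs either.

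**Figure D1:**
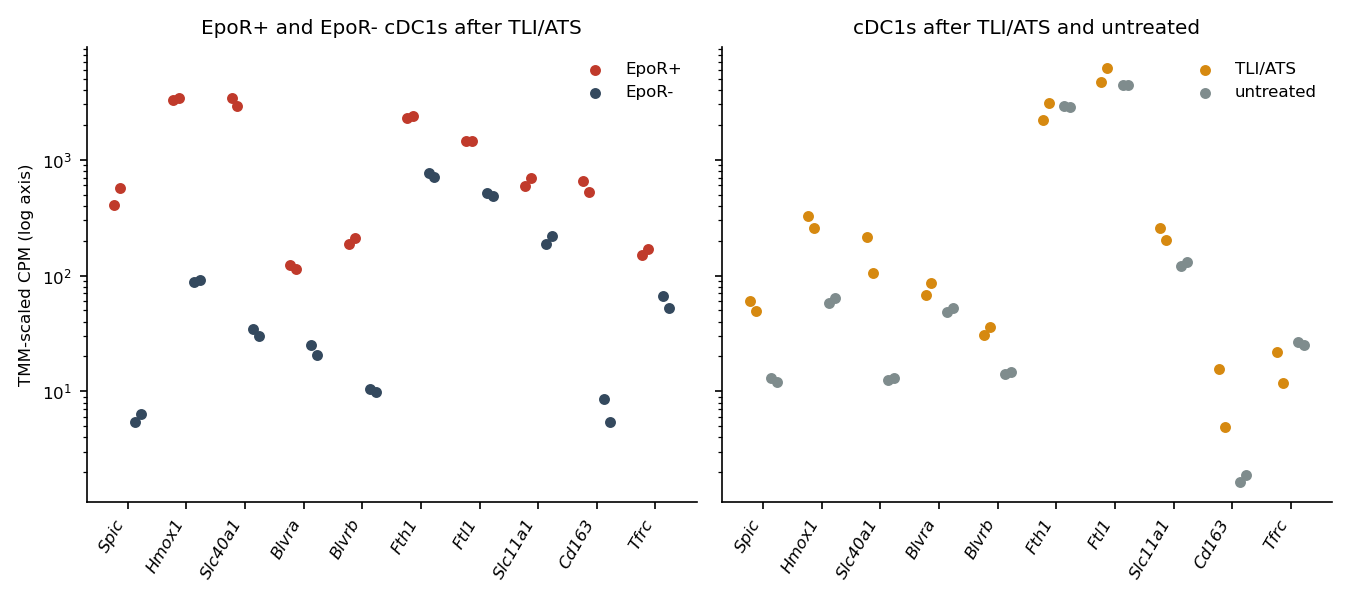
TMM-scaled CPM (log axis) of the 10 members in each library, with EpoR+ and EpoR- cDC1s after TLI/ATS on the left and cDC1s after TLI/ATS and untreated cDC1s on the right; each point is a library (2 per group). Every EpoR+ point lies above every EpoR- point of the same gene, whereas on the right Fth1 overlaps and Tfrc lies lower after TLI/ATS.

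Markers of some other cells, though not of all, moved with the members in this comparison. All 23 macrophage markers were higher in EpoR+ cells (median log2 fold change 6.42), with sums of 27435 to 27459.9 CPM in EpoR+ and 798 to 924 CPM in EpoR- libraries. All 19 erythroid markers were higher (median 3.53), with sums of 2441 to 2771 CPM in EpoR+ and 333 to 418 CPM in EpoR- libraries. No marker of these 2 lists was at 0 throughout either fraction. Basophil and mast cell markers summed to 669 to 797 CPM in EpoR+ and 32.4 to 36 CPM in EpoR- libraries. Of these 1 of 8 was called higher, and their median log2 fold change was -0.49. Markers of cDC2s and monocyte-derived cells summed to 477 to 515 CPM in EpoR+ and 133 to 142 CPM in EpoR- libraries (7 of 10 higher and 1 lower). T cell markers summed to 70.8 to 73.3 CPM in EpoR+ and 12.1 to 16.7 CPM in EpoR- libraries. Neutrophil and monocyte markers went the other way, at 499 to 597 CPM in EpoR+ and 722 to 1438 CPM in EpoR- libraries. Their median was -0.71, with 1 of 11 called higher and 1 lower. B cell markers summed to 142 to 145 CPM in EpoR+ and 149 to 150.4 CPM in EpoR- libraries (2 of 10 higher and 2 lower). Of 15 cDC1 markers 14 were lower, and their sums were 8289 to 9805 CPM in EpoR+ and 17782 to 19507 CPM in EpoR- libraries. The part of RNA from other cells in the members' differences was not tested.

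Other haem and iron genes moved in the same direction in part. Of 78 genes of 9 wider lists that were tested, 33 were higher in EpoR+ cells and 0 lower (44 with an unadjusted p under 0.05; DESeq2 called 36, all lists together), with a median of 0.73, beside 16.7% of all genes called, 11.9% higher. Haem transport had 6 of 10 higher, led by Lrp1 (log2 fold change 5.57 ± 0.13), the receptor for haem bound to haemopexin. Behind it came Slc46a1 (3.84 ± 0.35), Abcc5 (3.60 ± 0.45) and Slc48a1 (2.69 ± 0.18), the last of which carries haem out of the phagolysosome. Of 11 iron uptake genes 5 were higher, with Slc22a17 (4.86 ± 0.79), Tfr2, the second transferrin receptor (3.82 ± 0.38), transferrin itself (Trf, 3.80 ± 0.15) and the endosomal ferrireductase Steap3 (3.49 ± 0.21) in front. Cp, the ferroxidase ceruloplasmin that works beside ferroportin, rose by 4.12 ± 0.22. Ncoa4, the receptor that takes ferritin to lysosomes, rose by 1.92 ± 0.17 as the 1 call among 4 storage genes.

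Haem synthesis had 6 of 9 genes higher, among them Alas2, the erythroid form of its first enzyme, with 63 and 55.4 CPM in EpoR+ and 5.41 and 3.66 CPM in EpoR- cells (log2 fold change 3.70 ± 0.24). Cpox (1.31 ± 0.12) and Urod (1.23 ± 0.14), later enzymes of the same path, also rose. Of 13 mitochondrial iron genes 5 rose, the largest being the iron importer mitoferrin 1 (Slc25a37, 1.97 ± 0.18), with Tmem14c (1.12 ± 0.13), Glrx5 (0.92 ± 0.16) and Abcb10 (0.85 ± 0.19) behind it. Of 8 iron sensing genes 2 rose, Epas1 (3.01 ± 0.58) and Hfe (1.20 ± 0.13), which encode HIF-2alpha and the haemochromatosis protein. Targets shared by BACH1 and NRF2 other than the members had 5 of 11 higher, with Gclm and Srxn1 each at 1.48, Osgin1 at 1.36 and G6pdx at 1.16. Of 11 haem-responsive regulators the haem-binding nuclear receptors Nr1d1 (5.24 ± 0.77) and Nr1d2 (2.63 ± 0.24) passed. Against those shares of all genes, the counts for regulators, iron sensing and storage genes are near the background.

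The cDC1s of TLI/ATS mice were set against those of untreated mice. Of the members 3 rose, Slc40a1, Hmox1 and Spic, and none fell, where 2.7% of 17236 genes were called, 0.499% higher and 2.2% lower. DESeq2 also called Blvrb, Cd163 and Slc11a1. The member median was 1.04, against 0.02 over all genes. Slc40a1 had 215 and 106 CPM after TLI/ATS and 12.5 and 13 CPM in untreated cells (log2 fold change 3.65 ± 0.40, 12.5-fold, n = 2 each; edgeR quasi-likelihood, Benjamini-Hochberg adjusted p = 0.021). Hmox1 had 329 and 256 CPM after TLI/ATS and 57.7 and 64.3 CPM in untreated cells (2.26 ± 0.21; adjusted p = 0.0139 by the same edgeR test). Spic had 60.4 and 49.3 CPM after TLI/ATS and 13.1 and 12.1 CPM in untreated cells (2.12 ± 0.20; adjusted p = 0.0147 by the same edgeR test). For these genes both treated libraries stood well above both untreated ones, and the calls held under every alternative tried, with adjusted p-values of at most 0.0359. The size of the Slc40a1 change depended on the treated library, at 3.05 without TLI/ATS replicate 1 and 4.07 without replicate 2.

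The remaining members did not pass. Blvrb had 30.9 and 35.9 CPM after TLI/ATS and 14 and 14.6 CPM in untreated cells, with a log2 fold change of 1.22 ± 0.20 just short of the threshold (edgeR quasi-likelihood, Benjamini-Hochberg adjusted p = 0.0504). Cd163 had 15.6 and 4.92 CPM after TLI/ATS and 1.66 and 1.89 CPM in untreated cells, a gap without overlap but with an uneven treated pair (2.53 ± 0.60; adjusted p = 0.128 by the same edgeR test). Slc11a1 had 256 and 203 CPM after TLI/ATS and 122 and 129.7 CPM in untreated cells (0.86 ± 0.19; adjusted p = 0.101 by the same edgeR test). The treated libraries again lay higher in all 3, but the share of all genes that separate in this way was not computed. Blvra had 67.9 and 85.9 CPM after TLI/ATS and 48.3 and 52.3 CPM in untreated cells (0.61 ± 0.19).

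Ferritin and the transferrin receptor gave no call. Fth1 had 2187 and 3095 CPM after TLI/ATS and 2925 and 2855 CPM in untreated cells, which overlap (-0.13 ± 0.21). Ftl1 had 4729 and 6237 CPM after TLI/ATS and 4409 and 4437 CPM in untreated cells (0.31 ± 0.19). Tfrc had 21.9 and 11.9 CPM after TLI/ATS and 26.4 and 25.1 CPM in untreated cells (-0.61 ± 0.33; edgeR quasi-likelihood, Benjamini-Hochberg adjusted p = 0.48). The treated replicates split the members: replicate 1 was higher in Spic, Hmox1, Slc40a1, Slc11a1, Cd163 and Tfrc and replicate 2 in Blvra, Blvrb, Fth1 and Ftl1. The ratio of Ftl1 to Fth1 was 2.08 and 1.93 after TLI/ATS and 1.45 and 1.49 in untreated cells, with an exact two-sided permutation p of 0.333, the smallest that 2 against 2 allows.

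Macrophage markers were again higher, 10 of 21 tested, with sums of 2238 to 2493 CPM after TLI/ATS and 1053 to 1067 CPM in untreated libraries, and Trem2 at 0 in both groups. Of 16 erythroid markers tested 6 were higher, with sums of 1469 to 1531 CPM after TLI/ATS and 245 to 266 CPM in untreated libraries. Epb42 and Gfi1b were among the erythroid markers at 0 in the untreated libraries. All 16 T cell markers were lower, with sums of 24.5 to 34.7 CPM after TLI/ATS and 898 CPM in both untreated libraries. Of 12 B cell markers 10 were lower, with sums of 176 to 189 CPM after TLI/ATS and 871 to 873 CPM in untreated libraries, and of 10 plasmacytoid dendritic cell markers 8 were lower, with sums of 243 to 268 CPM after TLI/ATS and 1111 to 1119 CPM in untreated libraries. Of 8 basophil and mast cell markers 3 were higher, with sums of 44.2 to 88.8 CPM after TLI/ATS and 6.42 to 7.06 CPM in untreated libraries. Neutrophil and monocyte markers summed to 425 to 614 CPM after TLI/ATS and 910.0 to 951 CPM in untreated libraries, with 3 of 10 higher and 1 lower. Their median log2 fold change was 2.14, opposite in direction to the sums. The 15 cDC1 markers summed to 13398 to 13823 CPM after TLI/ATS and 9664 to 9781 CPM in untreated libraries, with 1 called higher. The part of RNA from cells other than cDC1s in these differences of the members was not tested. Of 76 wider haem and iron genes 3 were higher and 0 lower (13 with an unadjusted p under 0.05; DESeq2 called 6) beside 2.7% of all genes called, 0.499% higher, and 2705 of 17236 with an unadjusted p under 0.05. These were Alas2 (17.3 and 10.9 CPM after TLI/ATS, 2.18 and 1.25 CPM in untreated cells; log2 fold change 3.04 ± 0.41), Trf (276 and 216 CPM after TLI/ATS, 102 and 106 CPM in untreated cells; 1.25 ± 0.19) and Lcn2. Lcn2, a carrier of bacterial iron chelators, had 0.883 and 1.58 CPM after TLI/ATS and none in untreated libraries.

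**Figure D2:**
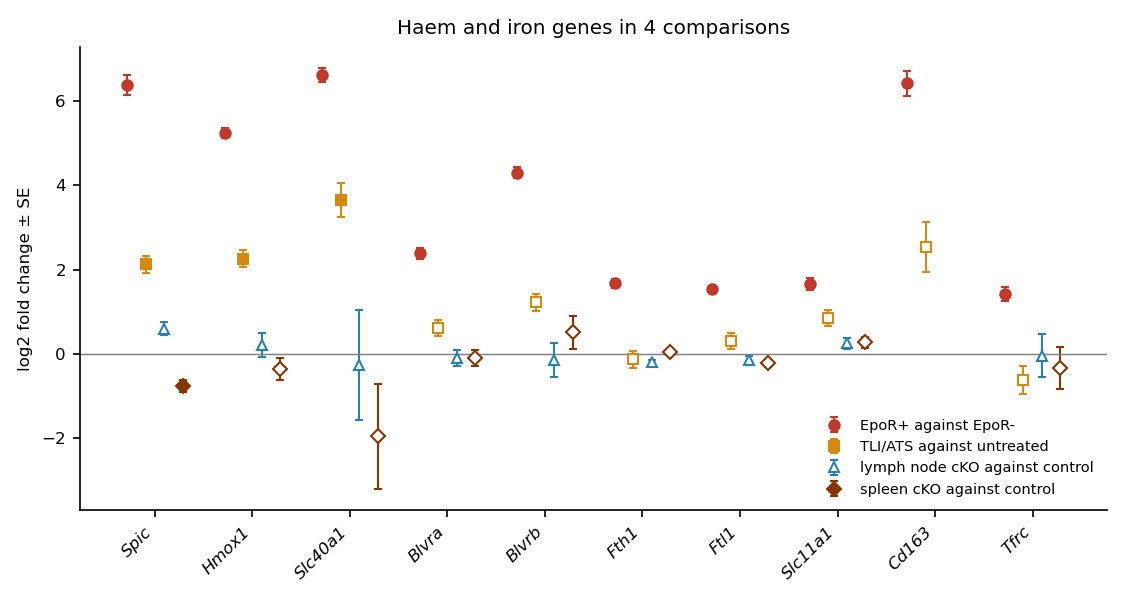
Log2 fold change with its SE for the 10 members in EpoR+ against EpoR- cells, TLI/ATS against untreated, lymph node cKO against control and spleen cKO against control; filled symbols passed an adjusted p under 0.05, open ones did not, and Cd163 is left out of the cKO comparisons because spleen controls had 0 counts. All 10 EpoR+ symbols lie above 1, and in the cKO comparisons the one filled symbol is Spic in spleen at -0.76.

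Deletion of Epor under Xcr1-Cre was compared with flox/flox controls in each tissue. Of the 10 members 1 was called in spleen, Spic, which fell, where 0.611% of 17362 genes were called, 0.121% lower and 0.49% higher (21 and 85 genes, or 9 and 102 with library totals in place of TMM). None was called in lymph node with edgeR (2 with an unadjusted p under 0.05; DESeq2 called 1, Spic), where 0.455% of genes were called. Spic had 45, 49.3 and 41 CPM in spleen cKO and 89.3, 67.1 and 73.1 CPM in spleen control libraries. Every cKO library lay below every control. The log2 fold change was -0.76 ± 0.15 (n = 3 each; edgeR quasi-likelihood, Benjamini-Hochberg adjusted p = 0.0326). This call sat close to the threshold: it was lost without spleen cKO replicate 1, 2 or 3 or spleen control replicate 1 (log2 fold changes of -0.74, -0.81, -0.67 and -0.62; adjusted p of 0.166, 0.105, 0.166 and 0.116) and with library totals in place of TMM (adjusted p = 0.0595), over a range of 0.000326 to 0.166 in all alternatives. Without spleen control replicate 3, the library that stood apart, Spic changed by -0.77 (adjusted p = 0.0351 by the same edgeR test).

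In lymph node the order was the opposite one. Spic had 21.1, 24.6 and 17.8 CPM in cKO and 15.4, 14.1 and 12.3 CPM in control libraries, again without overlap. The log2 fold change was 0.60 ± 0.15 and did not pass (edgeR quasi-likelihood, Benjamini-Hochberg adjusted p = 0.163; 0.0189 to 0.566 over the alternatives). The difference between the cKO effects of lymph node and spleen was tested directly and came to 1.37 ± 0.21 (edgeR quasi-likelihood, Benjamini-Hochberg adjusted p = 0.0102, where 0.317% of genes were called, 22 higher and 33 lower, or 15 and 41 with library totals in place of TMM). It kept its call under every alternative run, with values from 1.23 to 1.47 and adjusted p-values of at most 0.0435. Without lymph node cKO replicate 2 the lymph node change was 0.48 and the difference 1.24, without lymph node control replicate 2 they were 0.61 and 1.37, and without spleen control replicate 3 the difference was 1.38. The 4 groups enter the tissue comparisons as well, so all results of this table share libraries.

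Summed macrophage markers did not follow the direction of Spic in lymph node. They came to 256, 265 and 282 CPM in lymph node cKO and 334, 325 and 312 CPM in lymph node control libraries, lower in cKO without overlap, while Spic was higher in cKO. In spleen they came to 602, 634 and 568 CPM in cKO and 624, 646 and 687 CPM in control libraries, which overlap. Of 18 macrophage markers tested 0 were called in spleen and 1 in lymph node, Apoe, lower by a log2 fold change of -0.43. The median log2 fold change of these markers was 0.34 in spleen and -0.23 in lymph node. Erythroid markers lay the same way as Spic in spleen, with sums of 131, 138 and 129 CPM in cKO and 175, 167 and 165 CPM in control libraries, although of 10 tested 1 was called, higher. Sums of 6 other lists were higher in spleen cKO without overlap. Plasma cell markers summed to 2925 to 3229 CPM in spleen cKO and 1492 to 1619.5 CPM in spleen control libraries (3 of 10 called higher). Neutrophil and monocyte markers summed to 150.2 to 168 CPM in spleen cKO and 102 to 117 CPM in spleen control libraries, and basophil and mast cell markers to 17.5 to 21.7 CPM in spleen cKO and 6.11 to 10.8 CPM in spleen control libraries. T cell markers summed to 134 to 144 CPM in spleen cKO and 118 to 123 CPM in spleen control libraries, and markers of cDC2s and monocyte-derived cells to 44.6 to 48.2 CPM in spleen cKO and 26.7 to 41.3 CPM in spleen control libraries. The B cell sums were at least 82.1 CPM in spleen cKO and at most 80.5 CPM in spleen control libraries. In lymph node T cell markers summed to 307 to 339 CPM in cKO and 392 to 397 CPM in control libraries. The part of these cells in the Spic results was not tested.

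**Figure D3:**
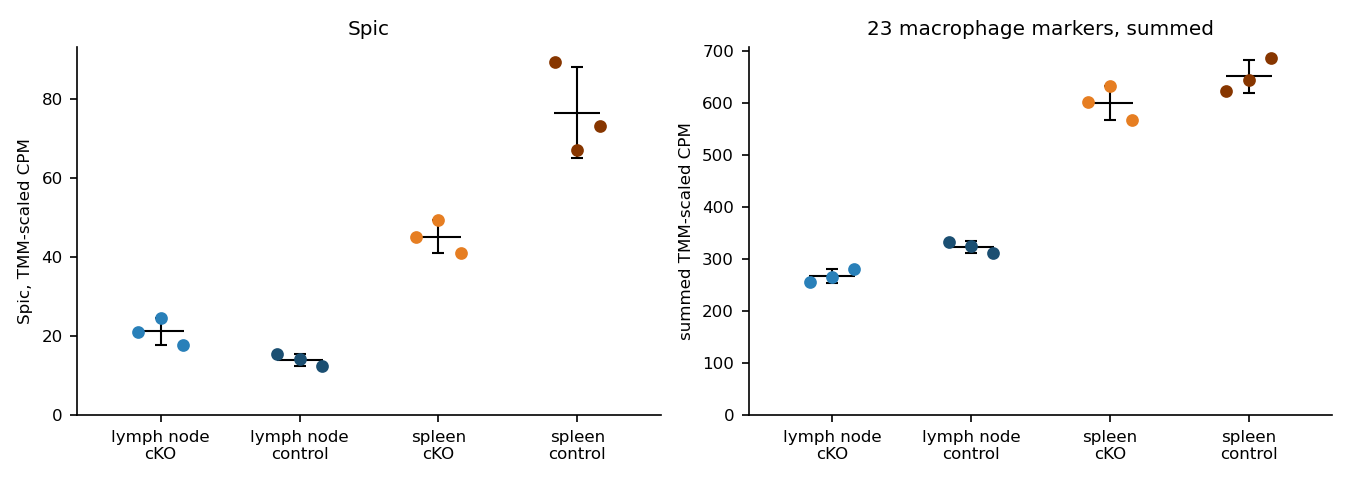
Spic (left) and the summed level of 23 macrophage markers (right) in TMM-scaled CPM in cDC1s of lymph node and spleen, cKO left of control in each tissue; points are libraries (3 per group), horizontal bars means and whiskers SD. Spic lies higher in cKO than in control in lymph node and lower in cKO than in control in spleen, whereas the marker sum is lower in lymph node cKO.

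None of the other 9 members was called between cKO and control. Hmox1 had 20.3, 22.5 and 19.4 CPM in spleen cKO and 26.5, 22.8 and 30 CPM in spleen control libraries, lower in each cKO library but short of the threshold (log2 fold change -0.35 ± 0.26; edgeR quasi-likelihood, Benjamini-Hochberg adjusted p = 0.629). Slc11a1 had 57.7, 63 and 65.9 CPM in spleen cKO and 50, 50.6 and 53.1 CPM in spleen control libraries (0.28 ± 0.13; adjusted p = 0.374 by the same edgeR test). Fth1 had 1843, 1841 and 1864 CPM in lymph node cKO and 2227, 2004 and 2148 CPM in lymph node control libraries (-0.20 ± 0.06; adjusted p = 0.324 by the same edgeR test). Ftl1 had 6799, 6959 and 6646 CPM in spleen cKO and 7365, 7150.3 and 9217 CPM in spleen control libraries (-0.22 ± 0.10; adjusted p = 0.384 by the same edgeR test). In these 4 cases, and for Cd163 in spleen near the limit of detection, the groups did not overlap although the test gave no call. The share of all genes without overlap was not computed, so nothing is read from these gaps. For Fth1 in spleen the log2 fold change was 0.04 ± 0.06, and for Blvra it was -0.10 ± 0.19 in both tissues. Blvrb changed by 0.51 ± 0.40 in spleen and -0.15 ± 0.40 in lymph node and Tfrc by -0.33 ± 0.50 and -0.04 ± 0.51. Changes of the size of these errors were not detectable here.

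Slc40a1 and Cd163, so high in EpoR+ cells, were near the limit of detection in this table. Slc40a1 had 39, 10 and 18 counts in spleen cKO and 8, 149 and 30 in spleen control libraries, and 12, 0 and 6 in lymph node cKO and 6, 14 and 0 in lymph node control libraries. Spleen control replicate 2 thus holds most of the control counts. Cd163 had 12, 1 and 2 counts in spleen cKO and 0 in each spleen control, and 2, 0 and 25 in lymph node cKO and 4, 0 and 32 in lymph node control libraries. A count of 0 allows up to 3 counts, a floor of 0.0841 to 0.113 CPM in the spleen controls. Of 77 wider haem and iron genes none was called by edgeR in either tissue (8 in spleen and 3 in lymph node with an unadjusted p under 0.05; DESeq2 called Bach2 and Isca1 in spleen and 0 in lymph node) or in the difference between tissues (12 with an unadjusted p under 0.05; DESeq2 called Bach2 and Hfe). The 3 comparisons had wider-list medians of 0.07, -0.07 and -0.08.

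Lymph node against spleen cDC1s was compared within each genotype. In control mice 6 members were lower in lymph node and 1, Fth1, was higher, where 41.3% of genes were called, 20.3% lower and 21% higher. In cKO mice 4 were lower and Fth1 was higher, where 29.4% of genes were called, 15.3% lower and 14.1% higher. The member medians were -1.24 and -0.96, against -0.01 and 0 over all genes. With library totals in place of TMM the median of all genes moved to 0.28 in control and 0.25 in cKO mice. The calls then split into 5277 higher and 2406 lower genes in control mice, against 3651 and 3518 with TMM, and into 3999 higher and 1752 lower in cKO mice, against 2454 and 2653 with TMM. That scaling flipped no called member's direction. Under it Fth1 changed by 0.83 and 0.54 and Ftl1 by -0.60 and -0.59 in control and cKO mice.

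Hmox1 showed the widest gap of the well-counted members. It had 3.17, 2.37 and 1.21 CPM in lymph node control and 26.5, 22.8 and 30 CPM in spleen control libraries, 11.7-fold lower in lymph node (log2 fold change -3.55 ± 0.29; edgeR quasi-likelihood, Benjamini-Hochberg adjusted p = 1.74e-07). In cKO mice it had 2.83, 2.17 and 2.8 CPM in lymph node and 20.3, 22.5 and 19.4 CPM in spleen libraries (-2.99 ± 0.29). No lymph node library came near a spleen library. Slc11a1 had 9.37, 9.17 and 10.5 CPM in lymph node control and 50, 50.6 and 53.1 CPM in spleen control libraries (-2.40 ± 0.14), and the cKO mice gave -2.44 ± 0.14. Spic, with the values given above, was lower in lymph node by -2.46 ± 0.16 in control and by -1.09 ± 0.15 in cKO mice on the log2 scale. The narrower gap in cKO mice restates the difference of 1.37 between the cKO effects.

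The 2 ferritin chains went in opposite directions. Ftl1 had 4152, 4792 and 3789 CPM in lymph node control and 7365, 7150.3 and 9217 CPM in spleen control libraries (log2 fold change -0.90 ± 0.10; edgeR quasi-likelihood, Benjamini-Hochberg adjusted p = 5.13e-06), and in cKO mice it changed by -0.83 ± 0.10. Fth1 had 2227, 2004 and 2148 CPM in lymph node control and 1452, 1412 and 1539 CPM in spleen control libraries (0.53 ± 0.06; adjusted p = 6.53e-06 by the same edgeR test), and in cKO mice it changed by 0.29 ± 0.06. Both chains separated the tissues in every library. Within a library, which no scaling can alter, the ratio of Ftl1 to Fth1 per base was 1.79, 2.3 and 1.69 in lymph node control and 4.87, 4.86 and 5.75 in spleen control libraries. It was 1.93, 1.83 and 2.19 in lymph node cKO and 4.22, 4.32 and 4.43 in spleen cKO libraries. The exact two-sided permutation p was 0.1 for lymph node against spleen in each genotype and also for spleen cKO against control, the smallest that 3 against 3 allows, and the lymph node genotypes overlapped.

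**Figure D4:**
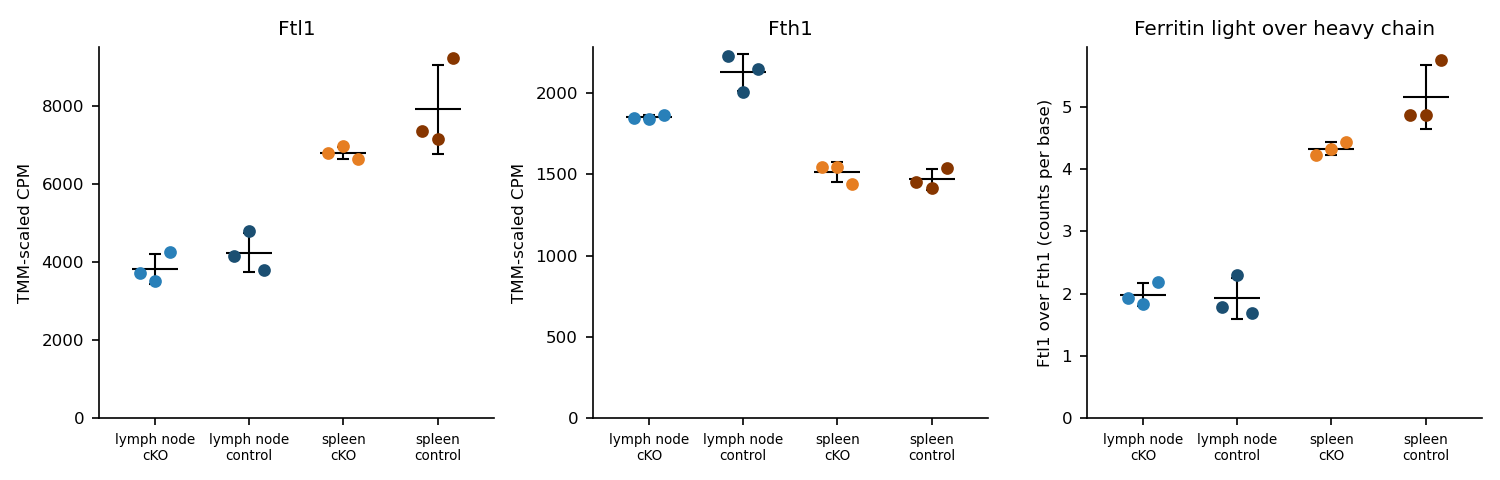
Ftl1 (left) and Fth1 (middle) in TMM-scaled CPM and the ratio of Ftl1 to Fth1 in counts per base (right) in lymph node and spleen cDC1s, cKO left of control in each tissue; points are libraries (3 per group), horizontal bars means and whiskers SD. Ftl1 is lower and Fth1 higher in lymph node, and the ratio lies between 1.69 and 2.3 in lymph node and between 4.22 and 5.75 in spleen.

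Ftl1 counts are uncertain in absolute terms. Its exons share 34.6% of their bases with Gm10252, on the opposite strand, and with Gm22133, and Ftl1 has near-identical pseudogenes. Counts of 3 of these pseudogenes came to 2.17% to 2.78% of the Ftl1 count in spleen and lymph node libraries, 1.75% to 2.12% in EpoR+ and EpoR- libraries and 14.2% to 15.5% in TLI/ATS and untreated libraries. Gm10252 had at most 30 counts in any library of the tables that list it, which does not tell how reads in the shared bases were assigned or how many Ftl1 lost. The pseudogene share differed between tables and hardly between groups of a table.

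Tfrc had 1.88, 1.72 and 1.5 CPM in lymph node control and 7.83, 5.5 and 1.99 CPM in spleen control libraries, without overlap by a narrow margin (log2 fold change -1.59 ± 0.51; edgeR quasi-likelihood, Benjamini-Hochberg adjusted p = 0.0221). The call was lost with library totals alone and in 5 of 6 fits that left out a library, with values between -1.10 and -1.66. In cKO mice Tfrc changed by -1.30 ± 0.51 and did not pass (adjusted p = 0.0698 by the same edgeR test). Slc40a1 in control mice passed at -3.97 ± 1.36 (edgeR quasi-likelihood, Benjamini-Hochberg adjusted p = 0.0292) with overlapping groups. It came to -2.01 without spleen control replicate 2 (adjusted p = 0.308 by edgeR) and also lost its call without lymph node control replicate 1 or 3 (-3.89 and -3.40). In cKO mice it did not pass. Blvra changed by -0.40 ± 0.19 in both genotypes and Blvrb by 0.20 ± 0.40 in control and -0.45 ± 0.40 in cKO mice, none of them called. Per kb, Ftl1, Fth1 and then Blvra led in both lymph node groups, while in spleen controls Spic at 43.4 ± 6.51 CPM per kb stood next after ferritin and Blvra at 29.8 ± 8.8 (SD, n = 3) after it, with overlapping SDs.

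**Figure D5:**
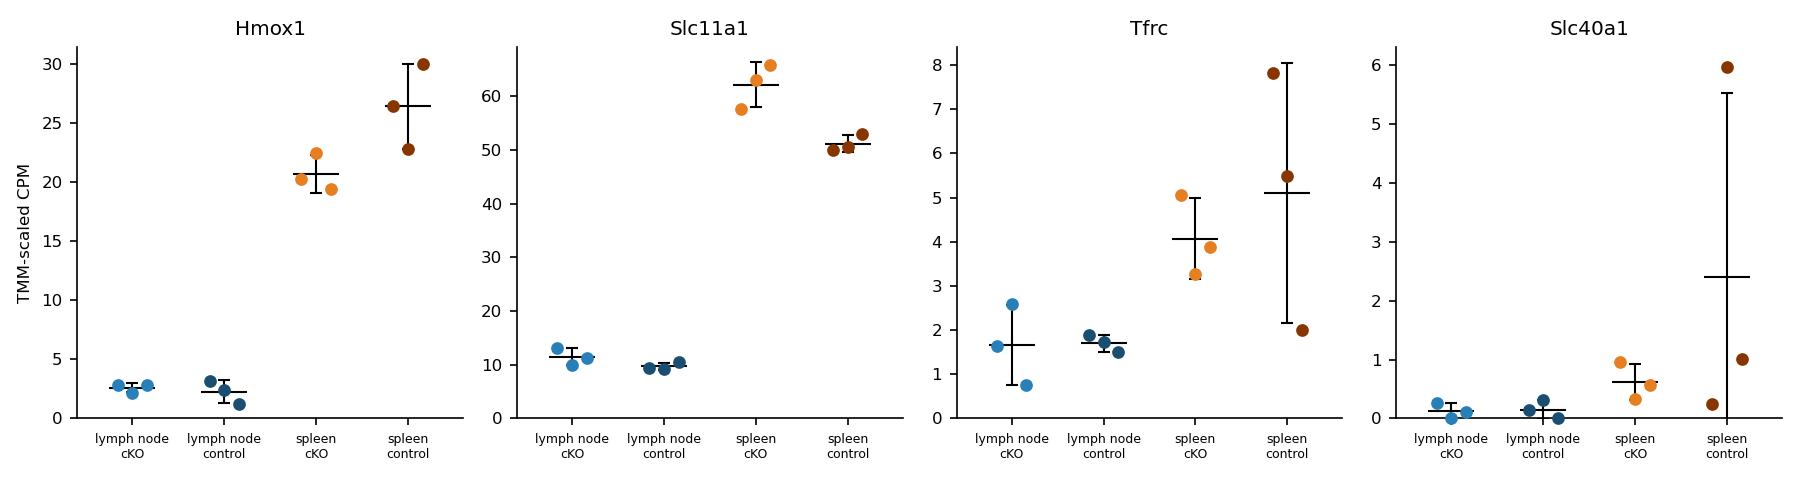
Hmox1, Slc11a1, Tfrc and Slc40a1 in TMM-scaled CPM in lymph node and spleen cDC1s, cKO left of control in each tissue; points are libraries (3 per group), horizontal bars means and whiskers SD. Hmox1 and Slc11a1 are low in all 6 lymph node libraries, and the mean of Slc40a1 in spleen control rests on 1 library at 5.98 CPM, with its lower whisker cut at 0.

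Other cells' markers differed between the tissues too. Macrophage markers summed to 312 to 334 CPM in lymph node control and 624 to 687 CPM in spleen control libraries, with 5 of 18 called higher and 5 lower in lymph node. Their median log2 fold change was 0.81, opposite in direction to the sums. In cKO mice it was 0.38, with 1 called higher and 7 lower. Erythroid markers summed to 51.1 to 63.4 CPM in lymph node control and 165 to 175 CPM in spleen control libraries. The globin genes Hba-a2, Hbb-bs and Hbb-bt were among 9 erythroid markers at 0 in lymph node controls, and Klf1 and Kel were at 0 in spleen controls. Neutrophil and monocyte markers summed to 14.4 to 16.3 CPM in lymph node control and 102 to 117 CPM in spleen control libraries (8 of 10 lower), and plasma cell markers to 290.1 to 317 CPM in lymph node control and 1492 to 1619.5 CPM in spleen control libraries. Of 15 cDC1 markers 10 were lower in lymph node of control and 11 of cKO mice. T cell markers ran the other way, at 392 to 397 CPM in lymph node control and 118 to 123 CPM in spleen control libraries. In cKO mice the lymph node and spleen sums were 256 to 282 and 568 to 634 CPM for macrophage markers, 56.7 to 59.8 and 129 to 138 CPM for erythroid, 13 to 15.9 and 150.2 to 168 CPM for neutrophil and monocyte, 266 to 319 and 2925 to 3229 CPM for plasma cell, and 307 to 339 and 134 to 144 CPM for T cell markers. The part of these cells in the results was not tested.

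Among 77 wider haem and iron genes, lymph node cells of control mice had 16 higher and 19 lower, and of cKO mice 12 higher and 19 lower. Of all genes, 41.3% were called in control and 29.4% in cKO mice, and nothing is read from the counts of these lists. Targets of BACH1 and NRF2 other than the members had 7 of 12 lower and 1 higher in each genotype. Gclc, which makes the rate-limiting subunit of glutathione synthesis, had 744, 992 and 542 CPM in lymph node control and 2359, 2307 and 2316 CPM in spleen control libraries (log2 fold change -1.62 ± 0.20), and Gsr, glutathione reductase, was lower by -1.22 ± 0.14. Nfe2l2, which encodes NRF2, had 60.4, 57.2 and 58.2 CPM in lymph node control and 161, 153 and 131 CPM in spleen control libraries (-1.34 ± 0.10), and Keap1, its inhibitor, was higher by 0.92 ± 0.10 in control and 0.50 ± 0.10 in cKO mice. Bach2 was higher in control mice at a low level (4.19 ± 0.78), and DESeq2 called it in control but not in cKO mice. In control mice the tissues did not overlap for any of these 5 genes. They were named from called genes by size of change. The share of all genes without overlap was not computed, so nothing is read from these gaps.

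Iron sensing genes moved both ways. Hfe, which modulates transferrin receptor 1, had 9.79, 8.12 and 8.02 CPM in lymph node control and 109, 98.4 and 116 CPM in spleen control libraries (log2 fold change -3.64 ± 0.17), and cKO mice gave -2.83 ± 0.16. Aco1, the cytosolic aconitase that becomes an iron regulatory protein when it loses its iron-sulphur cluster, had 73, 75.3 and 78.4 CPM in lymph node control and 23.9, 12.6 and 21.7 CPM in spleen control libraries (1.96 ± 0.18), and cKO mice gave 1.51 ± 0.18. Fbxl5, the iron sensor that marks the other iron regulatory protein for destruction, was higher by 0.33 ± 0.09 and Smad4 lower by -0.81 ± 0.22 in control mice. Haem synthesis had 3 of 9 genes higher in control mice, Fech (1.43 ± 0.28), Ppox (1.25 ± 0.13) and Urod (1.24 ± 0.28), which act late in the path. In cKO mice 4 of the 9 were higher and 1 lower. The neutrophil iron carriers Lcn2 and Ltf had 0 counts in all 6 lymph node libraries and at most 4.08 CPM in spleen.

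Some other genes followed the members closely over the 8 group means. Likeness was the root mean square difference of log2(CPM + 1), each gene centred within its table. It was taken over 12746 genes with a symbol, present in all 3 tables and with at least 1 CPM in the mean of any group. Predicted and clone-named genes, Rik and pseudogene symbols and mitochondrial genes were left out. Nearest to Spic were Adgre1 (0.35), Vcam1 (0.39), Rims3 (0.39), Hcar2 (0.47) and Hmox1 (0.49). Nearest to Hmox1 were the globin gene Hba-a2 (0.40), Ccl24 (0.44), the globin gene Hbb-bt (0.48), Spic (0.49) and Apoe (0.54). Slc40a1 had Gdf15 (0.21), Ccr3 (0.26), Siglece (0.31), Mertk (0.35) and Fcna (0.36), and Tfrc had Rgs1 (0.07), Slc25a33 (0.07), Dyrk2 (0.09), Best1 (0.10) and Ralgds (0.11). Adgre1, Vcam1, Apoe, Mertk and Fcna belong to the macrophage markers, Hba-a2 and Hbb-bt to the erythroid ones and Ccr3 to the basophil and mast cell ones. The 8 means come from 3 tables that were counted separately, and the centring removes differences in level between them.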

How the data were processed

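RNA-seq counts of 20 libraries were analysed. The authors deposited whole-number read counts per gene, not normalized. The submitters' processing notes name HISAT2, SAMtools, StringTie and featureCounts, without versions, and GRCm38 for the libraries of the TLI/ATS and EpoR tables. Per the file headers, EpoR+ and EpoR- libraries were counted with featureCounts 2.0.3 and spleen and lymph node libraries with featureCounts 2.0.8 on Ensembl release 100, after HISAT2 2.1.0 according to the processing notes. In both, mates were counted as separate reads, up to 2 counts for each pair, and strand was ignored. Per the labels' protocols, spleen and lymph node libraries started from 10 ng of RNA. There are no molecular identifiers, so the floor of 3 counts covers counting error only.

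Symbols from the tables or GENCODE vM21 covered 98.9%, 99.8% and 99.4% of genes in the 3 tables; Hjv was read as Hfe2. Tests used R 4.3.3 and edgeR 4.0.16 (filterByExpr with a minimum count of 10 and a minimum total of 15, TMM, robust quasi-likelihood, Benjamini-Hochberg over all genes) within each table, on 4, 4 and 12 libraries. The test script was checked on simulated data. Alternatives were DESeq2 1.42.0, no filter, RLE factors, library totals, a scale without genes of other cells, a single tissue, a replicate block and each library left out. Figures used matplotlib 3.10.9. The members, gene lists and tests were chosen with earlier results of these data known. The text names all members, up to 4 called genes per wider list and comparison by size of change (not all are listed), and the 5 genes nearest to 4 of the members. Replicates of a group all differed beyond sampling noise (chi-square per degree of freedom from 14.2 to 294).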

Additional observations from a re-analysis of the deposited data

Results flagged for a closer look

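The cKO effect on Spic differed between the tissues. The lymph node effect minus the spleen effect was 1.37 on the log2 scale (SE 0.21; edgeR's quasi-likelihood test of the interaction, Benjamini-Hochberg adjusted p = 0.0102, n = 3 in each of 4 groups). Spic averaged 21.2 ± 3.42 CPM in lymph node cKO and 13.9 ± 1.56 CPM in lymph node control libraries, and 45.1 ± 4.13 CPM in spleen cKO and 76.5 ± 11.5 CPM in spleen control libraries (SD). All 3 cKO libraries were higher than all controls in lymph node, and all 3 were lower in spleen.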

How the results depend on the processing

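No member that was called changed direction under any alternative, and all 10 calls of EpoR+ against EpoR- cells held throughout. Members without a call and close to 0 did change sign in places, such as Fth1 after TLI/ATS (-0.40 to 0.10). Counts of called genes moved more. For TLI/ATS the count of 465 became 1414 with DESeq2 and 476 to 4908 with 1 library left out; without TLI/ATS replicate 1 or 2 (4908 and 4679) the spread comes from the untreated pair, and the lone sample is assumed to vary like it. For EpoR+ against EpoR- the count of 2607 became 1454 to 2600 with 1 library left out. For spleen cKO the count of 106 became 546 with DESeq2, 436 with no filter and 31 to 379 with 1 library left out, 379 being without spleen control replicate 3. For lymph node cKO the count of 79 became 181 with DESeq2, 170 with no filter, 44 with lymph node libraries alone and 51 to 72 with 1 library left out. For the difference between tissues the count of 55 became 420 with DESeq2, 364 with no filter and 29 to 222 with 1 library left out, 222 being without spleen control replicate 3. For lymph node against spleen both totals stayed within 1.5 times, but with library totals alone the calls shifted to 5277 higher and 2406 lower in control mice and 3999 higher and 1752 lower in cKO mice. That scaling also gave 102 higher and 9 lower for spleen cKO (85 and 21 with TMM) and 15 higher and 41 lower for the difference (22 and 33 with TMM). The causes were not tested. Genes near the floor of 3 counts, such as Cd163 and Slc40a1 in spleen and lymph node, are limited by depth.

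With the replicate number as a block the counts were 1277 for TLI/ATS, 5356 for EpoR+ against EpoR-, 40 for spleen cKO, 62 for lymph node cKO, 34 for the difference, and 6717 in control and 4733 in cKO mice for lymph node against spleen. The labels do not say that numbers pair libraries. Deviations of same-numbered libraries correlated at 0.607 in the EpoR table, at -0.096 in the TLI/ATS table and at -0.244 to 0.159 in the spleen and lymph node table. Under the block Blvrb and Cd163 after TLI/ATS and Tfrc in lymph node against spleen of cKO mice gained a call, and no member lost one.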
